A study of Mus musculus with 24 samples.

Results

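Muscle transcriptomes were compared to find genes on which photobiomodulation therapy (PBMT, exposure of tissue to near-infrared light) had a different effect in exercised and in resting mice. The quantity examined was the PBMT effect in fatigued muscle minus the PBMT effect in sedentary muscle. It uses 24 of the 24 samples of the series, which were assigned by their titles to 4 groups of 6 mice. The samples are tibialis anterior (TA) muscle of wild-type male C57BL/6J mice aged 5 to 7 weeks. PBMT mice had their shaved lower limbs exposed under anesthesia to 830 nm light at 25 mW/cm2 for 20 min, a fluence of 30 J/cm2. Control mice, sedentary or fatigued, were shaved and anesthetized for the same 20 min and received no light. Muscle was dissected 24 h after PBMT. Sedentary mice did not run, whereas fatigued mice ran on a treadmill to exhaustion and were killed at once. Run time was not matched between fatigued PBMT and control mice, so that in fatigued muscle an effect of PBMT and one of run time cannot be told apart. The fatigued and the sedentary mice were sequenced as separate projects, so that project and exercise state cannot be told apart. A shift that is constant within a project cancels from the difference of effects on the log2 scale.

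Libraries of poly(A) RNA were sequenced and reads counted for each gene and mouse. Total counts ran from 43271093 to 46904076 in sedentary controls and from 46327516 to 52775844 in sedentary PBMT mice, so that PBMT libraries were deeper on average (p = 0.00433, two-sided, by exact permutation). In the fatigued mice they ran from 56792327 to 68726155 in controls and from 53122528 to 68566029 with PBMT (p = 0.357 by the same exact permutation test). The part of depth in the results was not tested, and expression is given as CPM, which is a count scaled to the normalized total of the mouse. Markers of fast TA myofibres were abundant in all 24 mice. Their 10 genes, led by Myh4, summed to 136900 to 207400 CPM (median 152300) in sedentary controls and to 143200 to 178800 CPM (median 169200) with PBMT, and to 174100 to 224300 CPM (median 212000) in fatigued controls and 181100 to 220000 CPM (median 203600) with PBMT. Sedentary control replicate 4 and fatigued PBMT replicate 5 lay farthest from their groups, at 0.501 and 0.509 log2 CPM from the group mean. The other mice of these groups lay at 0.304 to 0.339 and at 0.316 to 0.407.

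Skeletal muscle answers a bout of exercise within hours by changing the transcription of genes for fuel use, stress protection and signalling, and resident immune and connective tissue cells take part. Near-infrared light is widely held to be absorbed in part by cytochrome c oxidase of mitochondria, and PBMT is used on muscle before or after exercise. A gene whose PBMT effect has opposite signs, or is seen in 1 of the states, appears as a large difference between both effects.

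Of 15108 genes tested, 1 gene, Nfil3, had a different PBMT effect in the 2 states at an edgeR adjusted p under 0.05 (0.00662% of genes tested). At an unadjusted p under 0.05 there were 665 genes, 4.40% of those tested, against 755 that the threshold passes when no gene differs. This count lay on both sides of 755 under other settings: it was 980 with limma voom, and 494 to 990 when each mouse was left out, with the highest value without sedentary PBMT replicate 2. Of the 665 genes, 446 (2.95%) had a more positive effect in fatigued muscle and 219 (1.45%) a more negative effect. Without the 2 mice farthest from their groups these counts were 345 and 267, and without sedentary PBMT replicate 2 they were 616 and 374. At an unadjusted p under 0.01 there were 99 genes (0.655%), and 76 to 160 when each mouse was left out, with 160 without sedentary PBMT replicate 2 and 150 without sedentary control replicate 6. The same count was 220 with limma voom, 153 with the replicate block and 249 of 29970 genes with no filter. Apart from Nfil3, the genes below did not pass the adjusted test in the edgeR fit to all mice. They are described by their values, and none is called different between the states in that fit. Among the alternatives, DESeq2 also called Ifi205 and BC048679 for the difference. Without sedentary PBMT replicate 2, edgeR also called Rps4l and Hpcal1. Most of the genes below were chosen for a small p of the difference. Their exact p-values, which are not adjusted, are thus smaller than those of genes chosen otherwise. The median difference over all genes tested was 0.02, and 53.7% of differences were above 0. This median was 0.00 with limma voom, just below 0 without sedentary control replicate 4 or fatigued PBMT replicate 5, and -0.01 without both.

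Within each state, PBMT changed Nfil3 in sedentary muscle and no gene in fatigued muscle at an edgeR adjusted p under 0.05. In fatigued muscle 310 genes (2.05%) had an unadjusted p under 0.05, 216 of them (1.43%) higher with PBMT. With limma voom these counts were 515 and 333, and 0 genes had an adjusted p under 0.05. DESeq2 and the fit with a replicate block each called 1 gene in fatigued muscle, Trp63, which edgeR also called without fatigued PBMT replicate 2. The 310 became 236 to 494 when each mouse was left out, and those higher with PBMT 154 to 377, with 494 and 377 without fatigued control replicate 5 and 467 and 300 without fatigued PBMT replicate 1. Without fatigued PBMT replicate 5 they were 306 and 168. In sedentary muscle 1129 genes (7.47%) had an unadjusted p under 0.05, 415 of them (2.75%) higher with PBMT. Leaving out each mouse gave 804 to 1769 such genes, with 1769 without sedentary PBMT replicate 2. The number higher with PBMT then ran from 305 to 817, with 817 without that mouse and 683 without sedentary control replicate 6, and limma voom gave 2118 genes, 993 of them higher. At an adjusted p under 0.05 in sedentary muscle DESeq2 called 16 genes, limma voom 20 and the replicate block 7. Leaving out each mouse gave 1 to 4 such genes in edgeR: 4 without sedentary PBMT replicate 5, 3 without sedentary control replicate 4 or sedentary PBMT replicate 2, and 2 without fatigued control replicate 6 or fatigued PBMT replicate 1 or 3.

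Nfil3, a basic leucine zipper repressor with roles in circadian output and immune cells (in GRCm38 on chromosome 13 from 52967209 to 52981073), ran from 28.2 to 36.5 CPM (median 30.8) in controls and from 13.1 to 20.9 CPM (median 15.9) with PBMT in sedentary mice. In fatigued mice it ran from 52 to 68.1 CPM (median 60.7) in controls and from 49.7 to 78.2 CPM (median 66.1) with PBMT. In sedentary muscle all 6 PBMT mice lay below all 6 controls, whereas the fatigued groups overlapped. The log2 effects on Nfil3 were -0.97 in sedentary and 0.14 in fatigued muscle, and their difference was 1.11 (standard error 0.16, edgeR adjusted p = 0.0037). Its 95% confidence interval was 0.78 to 1.44. The exact permutation test, with PBMT labels permuted within each state, gave a two-sided p of 4.17e-04. Its null is no PBMT effect in either state, so here and below it is not a test of equal effects.

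**Figure D1:**
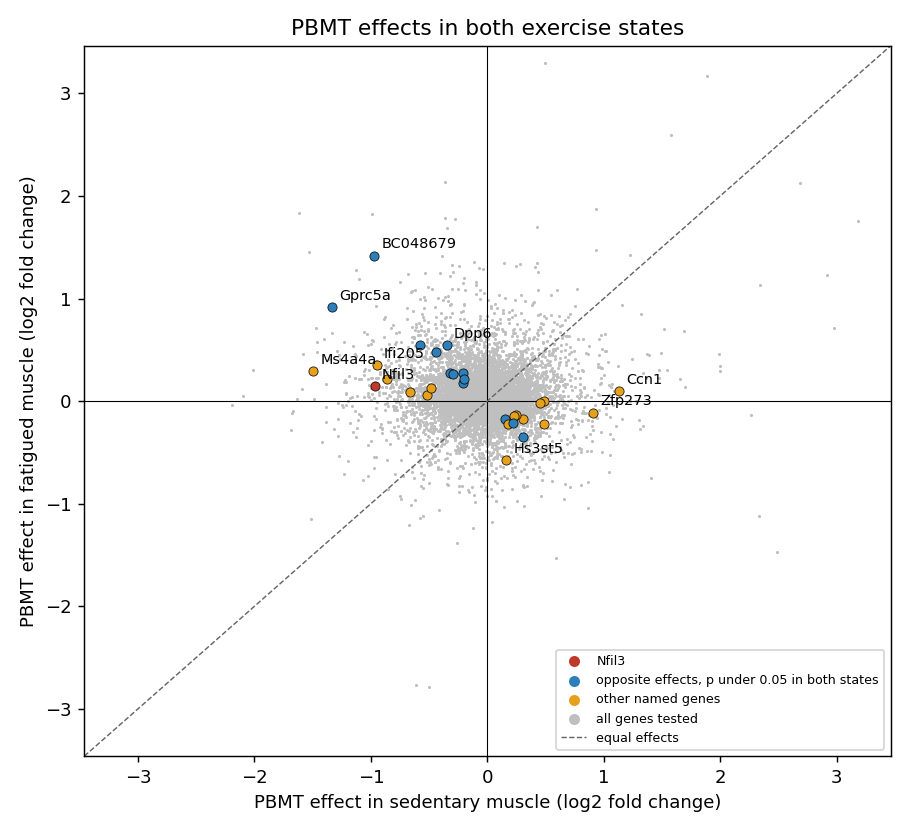
PBMT effect of every gene tested in sedentary muscle (x axis) and fatigued muscle (y axis), both as log2 fold changes, with 1 point per gene and the dashed line where both effects are equal. Genes with opposite effects lie in the upper left and lower right areas, and Nfil3 lies at -0.97 on the x axis and 0.14 on the y axis.

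Opposite effects, with an unadjusted p under 0.05 in both states, were seen for 16 genes (0.106% of genes tested), and for 1 gene at a p under 0.01 in both states. Of the 16 genes, 12 were lower with PBMT in sedentary muscle and higher in fatigued muscle. With limma voom the 16 and 12 became 31 and 21, and with the replicate block 24 and 21. Leaving out each mouse gave 10 to 28 opposite effects, with 28 without fatigued control replicate 5, 26 without fatigued PBMT replicate 2, and 10 without sedentary control replicate 1 or sedentary PBMT replicate 1 or 3. The 12 then ran from 8 to 22, with 22 without fatigued control replicate 5 and 19 without fatigued PBMT replicate 4. Pfkfb4 encodes an enzyme that sets the level of fructose 2,6-bisphosphate, a regulator of glycolysis. It ran from 45.5 to 61.9 CPM (median 54) in controls and from 35.9 to 51.7 CPM (median 48.4) with PBMT in sedentary mice. In fatigued mice Pfkfb4 ran from 55.6 to 71.3 CPM (median 63.6) in controls and from 64.7 to 83.5 CPM (median 81.5) with PBMT. The PBMT mice thus lay toward the low end of the sedentary controls and toward the high end of the fatigued controls, with overlap in both states. For Pfkfb4 the log2 effect was -0.21 in sedentary and 0.28 in fatigued muscle, which gives a difference of 0.49 (standard error 0.12, edgeR adjusted p = 0.621). The exact permutation p was 6.44e-04.

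Slc25a34, a member of the mitochondrial carrier family, ran from 10.5 to 18 CPM (median 14.4) in controls and from 6.85 to 13.7 CPM (median 11) with PBMT in sedentary mice. Its levels in fatigued mice ran from 7.8 to 18.7 CPM (median 10.6) in controls and from 13.7 to 19.7 CPM (median 16) with PBMT. Groups overlapped in both states, and fatigued control mice reached as high as 18.7 CPM. Slc25a34 thus had log2 effects of -0.44 in sedentary and 0.48 in fatigued muscle and a difference of 0.92 (standard error 0.25, edgeR adjusted p = 0.946). Ephx2, which encodes soluble epoxide hydrolase, ran from 23.9 to 27 CPM (median 25) in controls and from 17.6 to 24.9 CPM (median 22) with PBMT in sedentary mice and from 19 to 21 CPM (median 19.7) in controls and from 20.4 to 24.4 CPM (median 22.3) with PBMT in fatigued mice. These ranges overlapped in both states, and the shifts were small next to those of Slc25a34. As log2 fold changes, the effects on Ephx2 were -0.21 in sedentary and 0.18 in fatigued muscle, with a difference of 0.38 (standard error 0.09, edgeR adjusted p = 0.561), and the exact permutation p was 3.98e-05.

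Rnf144b, a RING-type ubiquitin ligase gene, ran from 20.8 to 25.5 CPM (median 24) in controls and from 15.7 to 22 CPM (median 18.2) with PBMT in sedentary mice. In the fatigued project Rnf144b ran from 28.7 to 41 CPM (median 36.8) in controls and from 36.3 to 51.1 CPM (median 42.5) with PBMT. In the edgeR fit to 24 mice it is the 1 gene with opposite effects at an unadjusted p under 0.01 in both states, and groups overlapped in each state. The number of such genes was 3 with DESeq2, limma voom or the replicate block and 0 without the 2 mice farthest from their groups. It was also 0 without sedentary PBMT replicate 1 or 3, fatigued control replicate 1 or fatigued PBMT replicate 3, 4 or 5, and 2 without sedentary control replicate 4 or 6, fatigued control replicate 5 or fatigued PBMT replicate 2 or 6. On the log2 scale, Rnf144b had a PBMT effect of -0.32 in sedentary and 0.27 in fatigued muscle, a difference of 0.59 (standard error 0.14, edgeR adjusted p = 0.43). Smad3, the signal transducer of TGF-beta and activin receptors, ran from 81.3 to 120 CPM (median 105) in controls and from 83.8 to 97.9 CPM (median 87) with PBMT in sedentary mice and from 132 to 181 CPM (median 137) in controls and from 151 to 194 CPM (median 175) with PBMT in fatigued mice. The log2 effects on Smad3 were -0.20 in sedentary and 0.22 in fatigued muscle, and their difference was 0.42 (standard error 0.13, edgeR adjusted p = 0.946). The paper that reported these data names Smad3 among genes upregulated with PBMT in both sedentary and exercised muscle, whereas the sedentary effect was negative here. Groups of Smad3 overlapped in both states. Mt1, a metal-binding metallothionein gene that responds to stress, ran from 16.7 to 32.5 CPM (median 22.4) in controls and from 9.79 to 23.4 CPM (median 16.3) with PBMT in sedentary mice and from 61.5 to 115 CPM (median 69.1) in controls and from 58.5 to 173 CPM (median 95.7) with PBMT in fatigued mice. PBMT and control mice overlapped in each state, and the highest values were in fatigued PBMT mice. For Mt1 the log2 effect was -0.58 in sedentary and 0.55 in fatigued muscle, which gives a difference of 1.13 (standard error 0.36, edgeR adjusted p = 0.946). Its neighbour Mt2 had effects of -0.65 and 0.63, but it passed an unadjusted p under 0.05 in neither state and is not one of the 16 genes.

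The largest opposite effects were on genes of low level. BC048679 had a median of 1.41 CPM in sedentary controls and 0.821 CPM with PBMT, against 0.602 and 1.02 CPM in fatigued mice. A single fatigued PBMT mouse, replicate 5, reached 4.79 CPM, and groups overlapped in both states. That mouse lay farthest from its group over all genes. BC048679 thus had log2 effects of -0.97 in sedentary and 1.42 in fatigued muscle and a difference of 2.39 (standard error 0.54, edgeR adjusted p = 0.43). Gprc5a, an orphan receptor gene, had medians of 0.663 and 0.287 CPM in sedentary mice and of 0.662 and 0.981 CPM in fatigued mice. As log2 fold changes, the effects on Gprc5a were -1.33 in sedentary and 0.92 in fatigued muscle, with a difference of 2.25 (standard error 0.62, edgeR adjusted p = 0.946). Dpp6, which encodes an auxiliary subunit of potassium channels, differed by 0.89 and Pqlc1 by 0.56. The other 2 of the 12 genes were pseudogenes. Rps4l, whose reads may be shared with close copies of the same ribosomal protein gene, had effects of -0.69 and 0.36, and Gm15163 had effects of -0.76 and 0.68.

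The reverse order, higher with PBMT in sedentary and lower in fatigued muscle, was seen for 4 of the 16 genes. This number also moved with single mice. Without fatigued PBMT replicate 2, 17 of 26 opposite effects were lower in sedentary and higher in fatigued muscle, and without sedentary PBMT replicate 1 or 3, 9 of 10 were. Supt7l, a subunit gene of a transcription coactivator complex, ran from 8.43 to 10 CPM (median 9.26) in controls and from 9.55 to 10.8 CPM (median 10.2) with PBMT in sedentary mice. In fatigued mice Supt7l ran from 8.72 to 9.99 CPM (median 9.4) in controls and from 7.76 to 8.6 CPM (median 8.43) with PBMT. All 6 fatigued PBMT mice lay below all 6 fatigued controls, whereas the sedentary groups overlapped. On the log2 scale, Supt7l had a PBMT effect of 0.15 in sedentary and -0.17 in fatigued muscle, a difference of -0.32 (standard error 0.09, edgeR adjusted p = 0.946), with an exact permutation p of 5.15e-05. Jrkl ran from 2.33 to 4.15 CPM (median 3.69) in controls and from 4 to 4.66 CPM (median 4.27) with PBMT in sedentary mice and from 2.87 to 4.09 CPM (median 3.34) in controls and from 2.14 to 3.16 CPM (median 2.74) with PBMT in fatigued mice, with overlap in each state. The log2 effects on Jrkl were 0.30 in sedentary and -0.35 in fatigued muscle, and their difference was -0.65 (standard error 0.18, edgeR adjusted p = 0.946). Slc38a9, a lysosomal amino acid transporter that signals arginine to mTORC1, had a difference of -0.44 (standard error 0.15). The antisense gene Gm11131 completes the 4 genes, with effects of 0.71 and -0.84.

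**Figure D2:**
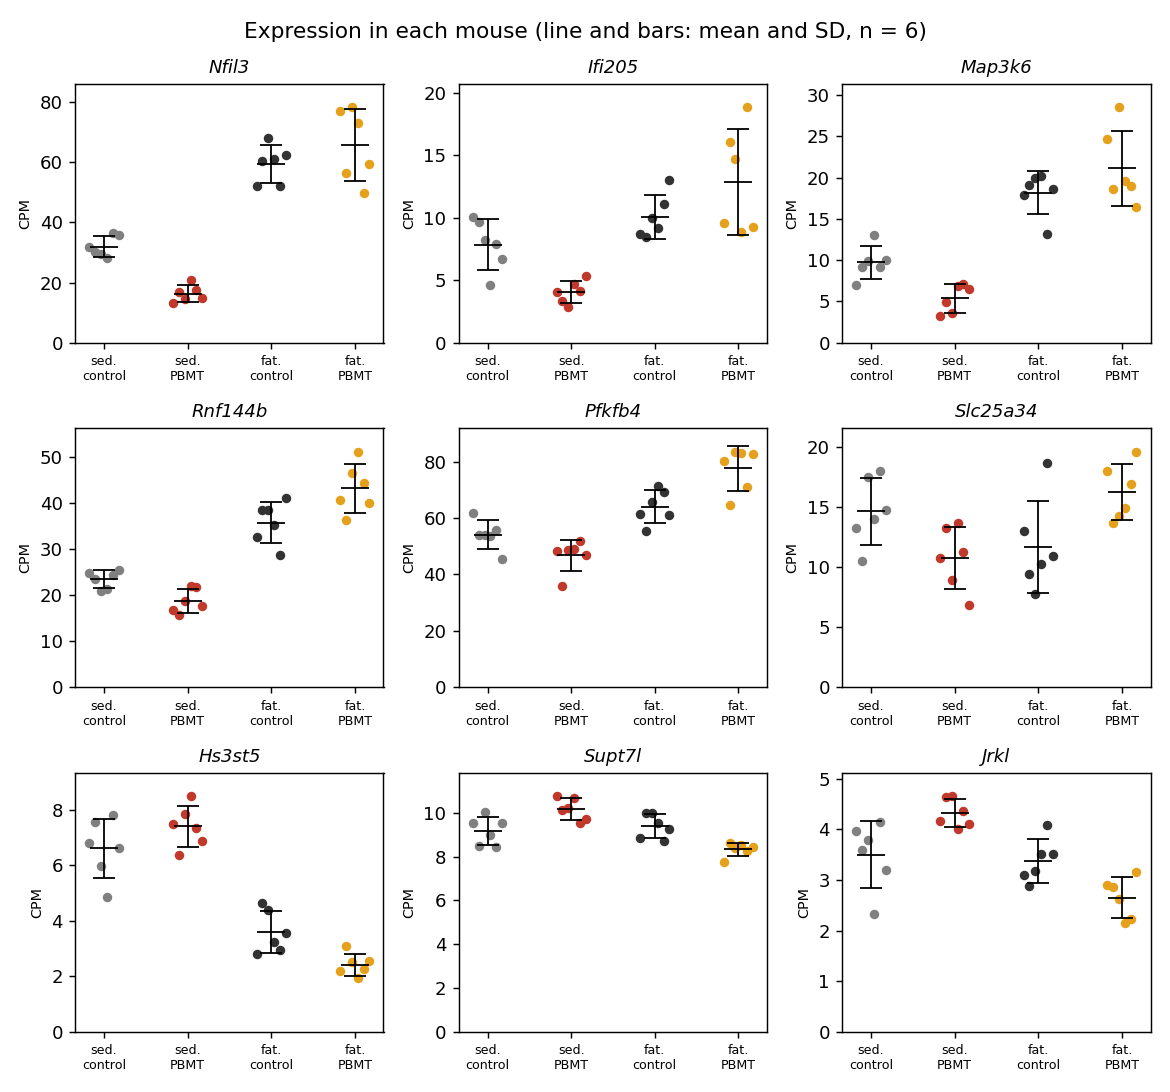
Expression of 9 named genes in CPM (y axis, starting at 0) in each mouse of the 4 groups (x axis), with 1 point per mouse and the mean and SD of 6 mice as a line and bars. Nfil3 falls from 28.2 to 36.5 CPM in sedentary controls to 13.1 to 20.9 CPM with PBMT, and the fatigued groups overlap.

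Of the 99 genes with an unadjusted p under 0.01 for the difference, 64 had a PBMT effect at an unadjusted p under 0.05 in sedentary muscle alone, 18 in fatigued muscle alone, 16 were the genes with opposite effects and 1, Il4ra, passed in neither state. The 64 genes include Nfil3, and 52 of them were lower with PBMT. Of such genes, 47 of 77 were lower without the 2 mice farthest from their groups, 60 of 89 without sedentary control replicate 4 and 94 of 147 with limma voom. Leaving out each mouse gave 51 to 119 effects in sedentary muscle alone, 37 to 85 of them lower, with 119 and 85 without sedentary PBMT replicate 2 and 109 and 76 without sedentary control replicate 6. For Il4ra, the receptor chain for interleukin 4, the effects were -0.34 and 0.33. Ms4a4a, a member of a family of membrane proteins of immune cells, ran from 0.791 to 2.43 CPM (median 1.48) in controls and from 0.3 to 0.72 CPM (median 0.506) with PBMT in sedentary mice, and the groups did not overlap. In fatigued mice Ms4a4a ran from 1.94 to 3.93 CPM (median 2.45) in controls and from 1.96 to 6.51 CPM (median 2.74) with PBMT, and the groups did. For Ms4a4a the log2 effect was -1.50 in sedentary and 0.29 in fatigued muscle, which gives a difference of 1.79 (standard error 0.42, edgeR adjusted p = 0.43). Ifi205, an interferon-inducible gene, ran from 4.59 to 10 CPM (median 8.04) in controls and from 2.85 to 5.31 CPM (median 4.07) with PBMT in sedentary mice and from 8.47 to 13 CPM (median 9.55) in controls and from 8.83 to 18.8 CPM (median 12.1) with PBMT in fatigued mice. Its sedentary groups overlapped in a narrow range and its fatigued groups in a wide range. Ifi205 thus had log2 effects of -0.95 in sedentary and 0.35 in fatigued muscle and a difference of 1.30 (standard error 0.28, edgeR adjusted p = 0.43). Ifi205 has close paralogs, among them Ifi204, with effects of -0.86 and 0.24, and how reads were divided between them is not known. Fatigued PBMT replicate 5, the mouse farthest from its group, had the highest fatigued PBMT value of Ms4a4a, Ifi205 and Ifi204.

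Map3k6, B4galt4, Hpcal1 and Cyb561 are also among the 52. Map3k6, a MAP kinase kinase kinase gene, ran from 7.04 to 13.1 CPM (median 9.54) in controls and from 3.21 to 7.12 CPM (median 5.71) with PBMT in sedentary mice and from 13.1 to 20.2 CPM (median 18.8) in controls and from 16.4 to 28.5 CPM (median 19.2) with PBMT in fatigued mice. Map3k6 groups overlapped by a narrow margin in sedentary and by a wide one in fatigued muscle. As log2 fold changes, the effects on Map3k6 were -0.86 in sedentary and 0.22 in fatigued muscle, with a difference of 1.08 (standard error 0.25, edgeR adjusted p = 0.43). B4galt4, a galactosyltransferase gene, ran from 7.18 to 7.63 CPM (median 7.33) in controls and from 4.18 to 6.21 CPM (median 5.08) with PBMT in sedentary mice, where the groups did not overlap. Its fatigued mice ran from 6.67 to 8.88 CPM (median 7.23) in controls and from 6.88 to 9.07 CPM (median 7.74) with PBMT, with overlap. On the log2 scale, B4galt4 had a PBMT effect of -0.52 in sedentary and 0.06 in fatigued muscle, a difference of 0.58 (standard error 0.13, edgeR adjusted p = 0.43). Hpcal1, a neuronal calcium sensor family gene, ran from 4.59 to 7.33 CPM (median 5.65) in controls and from 2.74 to 5.13 CPM (median 3.37) with PBMT in sedentary mice and from 7.89 to 9.57 CPM (median 8.5) in controls and from 8.15 to 10.6 CPM (median 9.09) with PBMT in fatigued mice, overlapping in both. The log2 effects on Hpcal1 were -0.66 in sedentary and 0.08 in fatigued muscle, and their difference was 0.75 (standard error 0.18, edgeR adjusted p = 0.43). Cyb561, a transmembrane cytochrome gene, differed by 0.61 (standard error 0.16).

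Ccn1 and Egr1 are among the genes higher with PBMT in sedentary muscle alone. Ccn1, a secreted matricellular protein gene, ran from 18.8 to 23.9 CPM (median 20) in controls and from 34.4 to 56.6 CPM (median 44.9) with PBMT in sedentary mice, without overlap. In fatigued mice Ccn1 ran from 18.7 to 66.4 CPM (median 29.4) in controls and from 24.5 to 52.6 CPM (median 34.6) with PBMT, and 1 fatigued control reached above every PBMT mouse. For Ccn1 the log2 effect was 1.13 in sedentary and 0.10 in fatigued muscle, which gives a difference of -1.03 (standard error 0.32, edgeR adjusted p = 0.946). Its exact permutation p was 0.0435. Egr1, an immediate early transcription factor gene, had medians of 2.03 and 16 CPM in sedentary mice and of 14.3 and 18.8 CPM in fatigued mice. The sedentary groups did not overlap, and the fatigued groups spread widely over each other. Egr1 thus had log2 effects of 2.97 in sedentary and 0.71 in fatigued muscle and a difference of -2.26 (standard error 0.76, edgeR adjusted p = 0.946). Its exact permutation p was 0.0416. The Notch ligand gene Jag1 and the transcription factor gene Mecom differed by -0.47 and -0.49. Zfp273, a zinc finger gene, had medians of 1.19 and 2.24 CPM in sedentary mice without overlap, and of 0.887 and 0.953 CPM in fatigued mice. Dixdc1, Dcaf17, Nrbf2 and Msh3 were likewise higher in sedentary PBMT mice, with differences of -0.71, -0.48, -0.38 and -0.37.

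Of the 18 genes with an effect in fatigued muscle alone, 14 were higher with PBMT. Leaving out each mouse gave 12 to 47 such genes, with 47 (35 higher) without fatigued PBMT replicate 2 and 44 (40 higher) without fatigued control replicate 5, and those higher numbered 24 without fatigued PBMT replicate 5 and 9 without sedentary PBMT replicate 1. Trp63, a transcription factor of the p53 family, ran from 3.1 to 5.41 CPM (median 3.62) in controls and from 3.62 to 5.31 CPM (median 4.17) with PBMT in sedentary mice. In fatigued mice it ran from 5.37 to 8.45 CPM (median 7.38) in controls and from 8.18 to 16 CPM (median 13.4) with PBMT, with overlap in the range of 8.18 to 8.45 CPM. As log2 fold changes, the effects on Trp63 were 0.14 in sedentary and 0.89 in fatigued muscle, with a difference of 0.75 (standard error 0.23, edgeR adjusted p = 0.946), and the exact permutation p was 0.0404. The effect on Trp63 in fatigued muscle passed an adjusted p under 0.05 with DESeq2, with the replicate block and without fatigued PBMT replicate 2. Trp63 is also a marker of skin keratinocytes, and the limbs were shaved. Of 14 keratinocyte markers 5 were tested, and Krt15 and Dsg1a were under 0.05 CPM. Trp63 had the highest mean of those tested in both fatigued groups, whereas in sedentary PBMT mice Krt10 was higher (4.72 against 4.32 CPM). Their sum was 11.7 to 13.9 CPM (median 12.8) in fatigued controls and 12.3 to 21.8 CPM (median 18.3) with PBMT, against 8.36 to 15.5 CPM (median 10.9) and 9.12 to 48 CPM (median 9.45) in sedentary mice. These sums include Trp63, whose mean was 6.99 CPM in fatigued controls and 12.9 CPM with PBMT. The other 4 markers tested had like means in both fatigued groups: Krt10 1.75 and 1.65 CPM, Sfn 1.85 and 1.77 CPM, Perp 1.52 and 1.58 CPM, and Col17a1 0.223 and 0.227 CPM. Whether skin contributed to the Trp63 reads was not tested. Adamts9, a protease of extracellular matrix proteoglycans, ran from 12.2 to 21.9 CPM (median 15.9) in controls and from 16.7 to 44.3 CPM (median 21.4) with PBMT in fatigued mice, with overlap. On the log2 scale, Adamts9 had a PBMT effect of -0.40 in sedentary and 0.58 in fatigued muscle, a difference of 0.98 (standard error 0.30, edgeR adjusted p = 0.946). In the other direction, Hs3st5, a sulfotransferase gene of heparan sulfate synthesis, ran from 4.87 to 7.8 CPM (median 6.72) in controls and from 6.37 to 8.49 CPM (median 7.42) with PBMT in sedentary mice and from 2.82 to 4.64 CPM (median 3.41) in controls and from 1.95 to 3.08 CPM (median 2.38) with PBMT in fatigued mice. Groups overlapped in both states, the fatigued ones in a narrow range. The log2 effects on Hs3st5 were 0.16 in sedentary and -0.57 in fatigued muscle, and their difference was -0.74 (standard error 0.19, edgeR adjusted p = 0.72). Zfp667 differed by -0.40 and Zfp35 by -0.31.

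Gene lists for functions and cell types were described by counts and medians, beside a median difference of 0.02 and 53.7% of differences above 0 over all genes tested, a median that lay at or just below 0 without sedentary control replicate 4 or fatigued PBMT replicate 5. At an unadjusted p under 0.05, 2.95% of all genes tested were more positive in fatigued muscle and 1.45% more negative. Among 43 lists in the edgeR fit, the widest gap was in macrophage and monocyte markers, where 14 of 14 members had a difference above 0. Their median effect was -0.72 in sedentary and 0.11 in fatigued muscle, a median difference of 0.86. At an unadjusted p under 0.05, 6 were more positive in fatigued muscle and 0 more negative, and with edgeR adjusted p-values 0 passed. In sedentary muscle 7 were lower with PBMT at an unadjusted p under 0.05, against 4.73% of all genes tested. In fatigued muscle 0 were lower, where 2.05% of all genes tested passed in either direction and 1.43% were higher. Without fatigued PBMT replicate 5 and sedentary control replicate 4, the mice farthest from their groups, the median difference was 0.63. Leaving out each mouse gave 0.53 to 1.03, the lowest without fatigued PBMT replicate 5. No defining marker of this list was at 0. In bulk muscle, fewer cells of a type and less RNA per cell cannot be told apart.

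Members of this list include complement and scavenger receptor genes. C1qb, a chain of complement C1q, ran from 6.04 to 12.6 CPM (median 8.07) in controls and from 2.77 to 6.4 CPM (median 4.15) with PBMT in sedentary mice and from 8.17 to 18.1 CPM (median 10.9) in controls and from 6.71 to 25.8 CPM (median 11.6) with PBMT in fatigued mice, with overlap in both states. Lyve1, a hyaluronan receptor of lymphatic endothelium and some macrophages, ran from 2.39 to 3.48 CPM (median 2.81) in controls and from 0.687 to 2.31 CPM (median 1.8) with PBMT in sedentary mice, without overlap, and from 3 to 5.72 CPM (median 5.16) in controls and from 3.45 to 13.9 CPM (median 5.39) with PBMT in fatigued mice, where replicate 5 was the highest with PBMT. Their differences were 1.12 and 1.19, with exact permutation p-values of 0.0415 and 0.0161. Interstitial mesenchymal markers, such as Dpep1 and Clec3b, had 13 of 13 differences above 0. Their median effect was -0.29 in sedentary and 0.12 in fatigued muscle, and the median difference of 0.43 was 0.25 without the 2 mice farthest from their groups. The same list summed to 1241 to 1840 CPM (median 1645) in sedentary controls and 984 to 1762 CPM (median 1193) with PBMT, and to 1543 to 2641 CPM (median 2198) and 1738 to 4526 CPM (median 2161) in fatigued mice, and Gsn was its most abundant gene. Collagen genes had median effects of -0.16 in sedentary and 0.15 in fatigued muscle, but without these 2 mice the median difference was -0.07 against 0.18. The same removal took tendon and cartilage markers from 0.28 to -0.18, adipocyte markers from 0.21 to -0.08 and osteoblast genes from 0.24 to -0.004. When each mouse was left out, tendon and cartilage markers ran from -0.235 to 0.441 and adipocyte markers from -0.043 to 0.411. In fatigued muscle 9 of 31 osteoblast genes were higher with PBMT at an unadjusted p under 0.05 and 0 lower, against 1.43% of all genes tested higher. Their median effect was 0.20 in fatigued and 0.08 in sedentary muscle, above 0 in both states. In sedentary muscle 0 of the 31 were higher and 2 lower at that threshold. For the difference 3 of the 31 passed it, all more positive, and 0 had an edgeR adjusted p under 0.05. The paper names osteoblast development as upregulated with PBMT in these same fatigued mice. Lists were chosen with earlier results known, so the count in fatigued muscle is not independent evidence. Without fatigued PBMT replicate 5 alone the median difference of osteoblast genes was 0.05, of collagen genes 0.03 and of interstitial mesenchymal markers 0.27. Schwann cell markers had a median difference of -0.32, with 11 of 12 below 0, which ran from -0.48 to -0.09 when each mouse was left out (-0.09 without sedentary PBMT replicate 6, -0.20 without fatigued control replicate 1, -0.48 without fatigued PBMT replicate 1) and was -0.56 without the 2 mice. Neutrophil markers had one of 0.60, 1.83 with limma voom and 0.35 to 1.72 when each mouse was left out, with Mpo under 0.05 CPM. This list summed to 30.5 to 67.2 CPM (median 39.8) in sedentary controls and 1.36 to 71.7 CPM (median 35.7) with PBMT, against 0.337 to 4.03 CPM (median 0.558) and 0.807 to 2.76 CPM (median 1.62) in fatigued mice. Of 12 lymphocyte markers 8 were under 0.05 CPM and 1 was tested.

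In fatty acid uptake and oxidation 33 of 34 members had a difference above 0, 9 of them at an unadjusted p under 0.05 and 0 at an edgeR adjusted p under 0.05. At that unadjusted threshold 2.95% of all genes tested were more positive in fatigued muscle. The median effect was -0.14 in sedentary and 0.06 in fatigued muscle, and the median difference of 0.17 ran from 0.13 to 0.20 when each mouse was left out. In sedentary muscle 8 of the 34 were lower with PBMT at an unadjusted p under 0.05 and 0 higher, against 4.73% of all genes tested lower. In fatigued muscle 1 was higher and 0 lower, where 2.05% of all genes tested passed in either direction and 1.43% were higher. Fabp3, a fatty acid binding protein of muscle, ran from 187 to 282 CPM (median 211) in controls and from 156 to 273 CPM (median 201) with PBMT in sedentary mice and from 176 to 233 CPM (median 205) in controls and from 218 to 340 CPM (median 234) with PBMT in fatigued mice. Lpl, lipoprotein lipase, ran from 363 to 506 CPM (median 459) in controls and from 320 to 462 CPM (median 411) with PBMT in the sedentary state and from 349 to 548 CPM (median 451) in controls and from 410 to 572 CPM (median 555) with PBMT in the fatigued state. Both genes overlapped between groups in each state, and their differences were 0.42 and 0.39. Acute exercise genes had a median difference of 0.30, with 20 of 28 above 0, and 0.18 without sedentary control replicate 4. Slow fibre genes had 12 of 12 above 0 and a median of 0.32, which was -0.01 with limma voom and ran from 0.18 to 0.58 when each mouse was left out. Glycolysis and glycogen genes had a median difference of 0.00, calcium handling genes of 0.00 and heat shock genes of 0.03, each changing sign when single mice were left out. Genes encoded by the mitochondrial genome had one of -0.15, 0.07 without the 2 mice farthest from their groups, 0.00 with limma voom and -0.22 to 0.07 when each mouse was left out, above 0 without sedentary control replicate 4. Among the other alternatives this median went as low as -0.30.

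PBMT effects varied with transcript length and GC content in sedentary muscle. Across genes, which are not independent replicates, the rank correlation of transcript length with the PBMT effect was 0.3 in sedentary and -0.019 in fatigued muscle, and with the difference -0.249. For GC content these correlations were -0.281, 0.07 and 0.266. Beyond removal of either trend, the part of length and GC content in the following lists was not tested. Of nuclear respiratory chain genes, with a median length of 1129 bases against 3170 over all genes, 78 of 91 had a difference above 0. At an unadjusted p under 0.05, 34 of the 91 were lower with PBMT in sedentary muscle, against 4.73% of all genes tested. In fatigued muscle 0 of the 91 were lower. There 2.05% of all genes tested passed in either direction and 1.43% were higher, so that few of all genes were lower. The median effect of the 91 was -0.135 in sedentary and -0.045 in fatigued muscle, below 0 in both states. For the difference 1 of 91 passed, against 4.40% of all genes tested. Their median difference was 0.09, 0.02 with the length trend and 0.09 with the GC trend removed, and 0.05 to 0.13 when each mouse was left out. The lowest values were 0.05 without sedentary control replicate 3 or sedentary PBMT replicate 6. For cytosolic ribosomal proteins the median was 0.08, 0.00 after removal of the length trend and 0.00 with limma voom, and 0.02 to 0.10 when each mouse was left out, with 0.02 without fatigued PBMT replicate 1 and 0.05 without sedentary control replicate 4. Mitochondrial ribosomal proteins had one of 0.12, 0.06 after the same removal and 0.07 with limma voom, and 0.07 to 0.13 when each mouse was left out, the lowest without sedentary PBMT replicate 6, fatigued PBMT replicate 1 or sedentary control replicate 3. In sedentary muscle 15 of 76 cytosolic and 19 of 77 mitochondrial ribosomal genes were lower with PBMT at an unadjusted p under 0.05, against 4.73% of all genes tested. In fatigued muscle 0 of either list were lower, where few of all genes were. Median effects of the cytosolic and mitochondrial lists were -0.079 and -0.116 in sedentary and -0.006 and -0.009 in fatigued muscle. For the difference 2 and 3 passed, all more positive, against 2.95% of all genes tested. Zinc finger genes had 267 of 362 differences below 0. Their median was -0.12, and -0.10 with the length trend and -0.10 with the GC trend removed. At an unadjusted p under 0.05, 23 zinc finger genes were more negative in fatigued muscle and 3 more positive, against 1.45% and 2.95% of all genes tested. In sedentary muscle 26 of the 362 were higher with PBMT and 2 lower, against 2.75% and 4.73% of all genes tested.

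**Figure D3:**
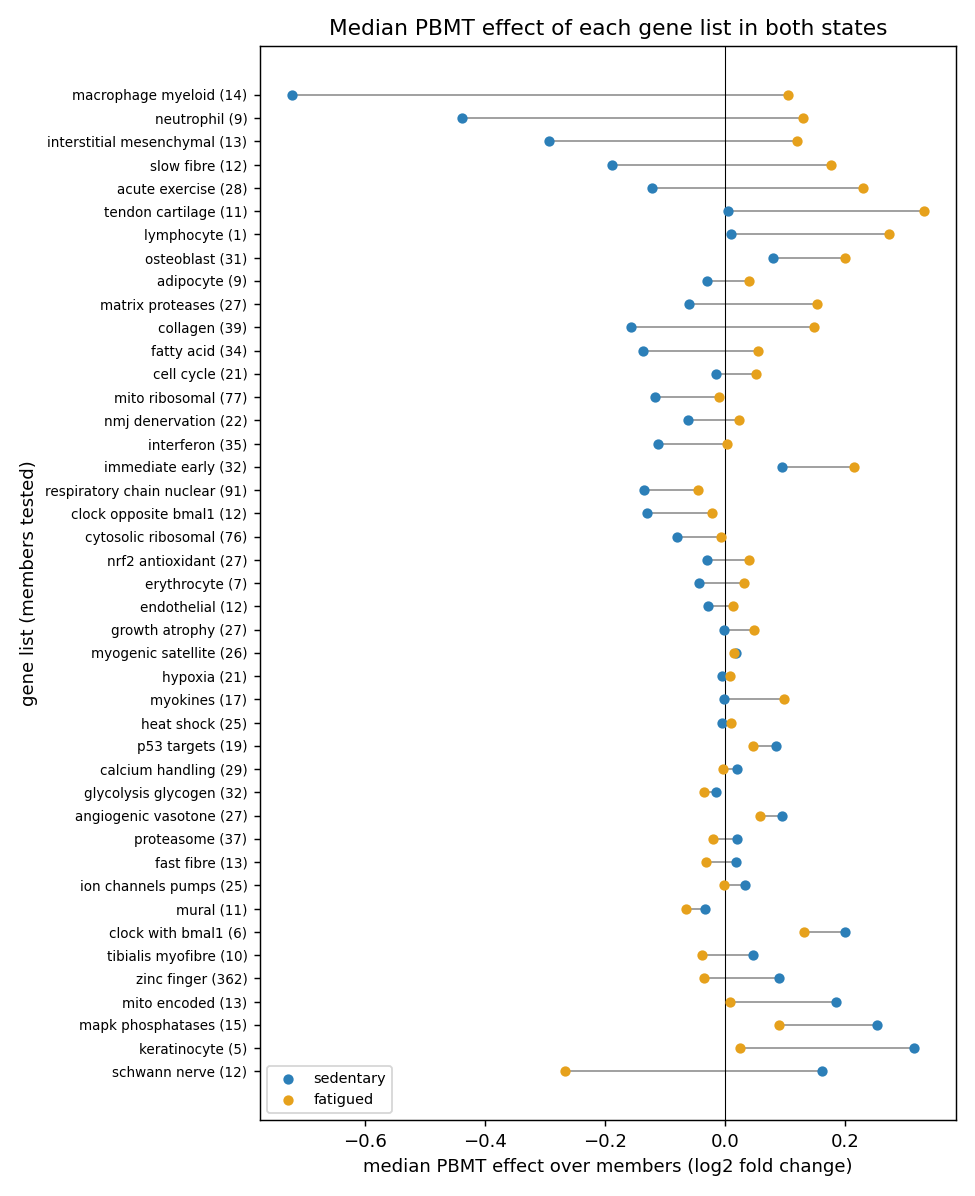
Median PBMT effect over the members of each of 43 gene lists (y axis, with the number of members tested), in sedentary and in fatigued muscle, as log2 fold change (x axis). Macrophage and monocyte markers lie at -0.72 in sedentary and 0.11 in fatigued muscle, and most lists lie near 0 in both.

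Clock genes that peak with Bmal1, 6 genes that include Nfil3, had a median difference of -0.09, 0.03 with limma voom and -0.17 to 0.01 when each mouse was left out. Those that peak opposite to Bmal1 had one of 0.09, and 0.01 without fatigued control replicate 3. Immediate early genes had one of 0.10, -0.05 with limma voom and 0.03 to 0.23 when each mouse was left out. At an unadjusted p under 0.05, 3 of 32 were more positive and 2 more negative in fatigued muscle, against 2.95% and 1.45% of all genes tested. Phosphatases and feedback inhibitors of MAP kinase signalling had one of -0.20, with 10 of 15 below 0, and -0.26 to -0.10 when each mouse was left out. Interferon genes had a median of 0.10, with 5 of 35 more positive and 0 more negative at an unadjusted p under 0.05. Over all genes tested these shares were 2.95% and 1.45%. The 5 include the paralogs Ifi205 and Ifi204, between which the division of reads is not known. The interferon median was 0.00 to 0.20 when each mouse was left out, lowest without sedentary control replicate 5, and reached 0.21 under the other alternatives. Antioxidant genes had one of 0.08, with 5 of 27 more positive and 0 more negative, against the same shares, and 0.05 to 0.12 when each mouse was left out. Neither list held a gene with an edgeR adjusted p under 0.05. The median was 0.04 for satellite cell and myogenic genes, with a change of sign under limma voom, with the GC trend removed, without the 2 mice farthest from their groups and without sedentary control replicate 4 alone (-0.02). At an unadjusted p under 0.05, 3 of 26 such genes were more negative in fatigued muscle and 1 more positive, against 1.45% and 2.95% of all genes tested. In sedentary muscle 4 of the 26 were higher with PBMT and 1 lower, against 2.75% and 4.73% of all genes tested. In fatigued muscle 0 were higher and 0 lower.

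Promoters of 24 protein-coding genes, the 12 with the smallest p of the difference in each direction among those with a mean log2 CPM over 0, were searched for the letters CACGTG (E-box), TTANGTAA (D-box, the element bound by Nfil3), TGACGTCA and TGANTCA on both strands, in the 250 bases before the start. Of the 24 genes, 22 had an entry in the RefSeq table (GRCm38.p6). For Jrkl 122 of the 250 bases are not known there, so 21 of the 22 were searched in full. CACGTG was found for 1 of 22 genes, Nrbf2, and in 6.02% of all 32851 promoters. TTANGTAA was found for 0 of 22 genes and in 2.06% of all promoters, TGACGTCA for 0 and 1.55%, and TGANTCA for 0 and 6.75%. The promoters of Nfil3, the called gene, and of Nrbf2, the gene with a match, are shown 5′ to 3′ with the match in capitals. They lie on the minus strand at chr13:52981040-52981289 and chr10:67285282-67285531.
Nfil3: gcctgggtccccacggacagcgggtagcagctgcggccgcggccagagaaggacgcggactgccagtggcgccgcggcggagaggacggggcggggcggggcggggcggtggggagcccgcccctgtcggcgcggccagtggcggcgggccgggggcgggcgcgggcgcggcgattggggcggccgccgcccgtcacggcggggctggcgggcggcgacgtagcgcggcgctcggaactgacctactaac
Nrbf2: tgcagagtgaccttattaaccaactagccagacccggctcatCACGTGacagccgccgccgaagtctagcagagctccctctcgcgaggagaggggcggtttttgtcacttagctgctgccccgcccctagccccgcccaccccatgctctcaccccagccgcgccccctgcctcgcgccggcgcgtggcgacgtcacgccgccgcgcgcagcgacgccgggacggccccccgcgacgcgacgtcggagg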

How the data were processed

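The counts were deposited by the authors as integers, 1 value per gene and mouse, without normalization. The submitters' processing notes name Trimmomatic, STAR 2.7.1a, Picard 2.20.4, StringTie 2.0.4, featureCounts 1.6.0 and HTSeq and the build GRCm38, without saying which tool made the counts. The strand setting of the counting is not given in the sources used here, so reads of overlapping antisense genes cannot be told apart. Of 55487 identifiers, 55227 matched GENCODE M21 (GRCm38), the source of symbols, coordinates, transcript lengths and GC content.

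All 24 mice were fitted together with 4 group means in R 4.3.3 with edgeR 4.0.16: filterByExpr by group with a minimum count of 10, TMM normalization, a quasi-likelihood model with robust dispersions, and p-values adjusted by Benjamini-Hochberg over all 15108 genes tested. The contrast was the PBMT effect in fatigued mice minus that in sedentary mice, and both effects came from the same fit. Log2 CPM used a prior count of 2. Single genes were also tested by exact permutation of PBMT labels within each state (924 by 924 arrangements, two-sided). The null of that test is no PBMT effect in either state. No pair of mice had counts equal within sampling noise: the smallest chi-square per degree of freedom was 13.4 over 60 pairs of the same group and 11.5 over 216 pairs of different groups. At 43271093 or more counts per mouse, replicates thus differed by more than counting error.

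Members and lists were chosen with earlier results of these data known. Named genes are those with an adjusted p under 0.05 for the difference or in either state, the 12 protein-coding genes with the smallest p in each direction among those with a mean log2 CPM over 0, and per list up to 4 members with an unadjusted p under 0.05 and up to 3 others of high expression, with Nfil3 as the reference. BC048679, Gprc5a, Pqlc1, Slc38a9, Rps4l, Gm15163 and Gm11131, which had opposite effects, and Il4ra lie outside this rule and were chosen after their values were seen. Lists were described by counts and medians without a test. The alternatives were DESeq2 size factors, no filter, at least 10 counts in every mouse, DESeq2 1.42.0, limma 3.58.1 voom with quality weights, a block for replicate numbers, removal of length or GC trends (loess, span 0.3), fits within a project and leaving out mice.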

Additional observations from a re-analysis of the deposited data

Results flagged for a closer look

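The PBMT effect on Nfil3 differed between the exercise states by 1.11 on the log2 scale (edgeR adjusted p = 0.0037), lower with PBMT in 6 of 6 sedentary mice than in any control.

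In 4 of the 96 groups of 6 mice checked over 24 named genes, 1 mouse lay far from the rest of its group, where chance gives about 1 in 20 groups. The gap to the nearest mouse, divided by the range of the group in log2 CPM, was 0.722 for Map3k6 in fatigued control replicate 5 (13.1 CPM, the lowest), 0.74 for Pfkfb4 in sedentary PBMT replicate 2 (35.9 CPM, the lowest), 0.847 for Cyb561 in fatigued control replicate 5 (10.7 CPM, the highest) and 0.702 for Zfp667 in fatigued control replicate 3 (5.24 CPM, the highest).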

How the results depend on the processing

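Nfil3 had an adjusted p under 0.05 for the difference in 33 of 33 alternative fits to the 4 groups, with differences of 1.05 to 1.21 and adjusted p-values from 9.79e-07 to 0.0308. The number of genes called for the difference was 3 with DESeq2 (Nfil3, Ifi205 and BC048679) and ran from 1 to 3 when each mouse was left out, with 3 (Nfil3, Rps4l and Hpcal1) without sedentary PBMT replicate 2. In edgeR it was 99 at an unadjusted p under 0.01 (220 with limma voom, 153 with the replicate block, 249 with no filter) and 665 under 0.05 (980, 764 and 1503). Separate fits per project, added after seeing the data, gave 8 genes with a normal approximation, which makes p too small at this number of mice, and 1 gene, Nfil3, with Welch degrees of freedom.

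In sedentary muscle the genes called were 16 with DESeq2, 20 with limma voom, 5 and 3 with the length and GC trends removed, 4 in a fit to the 12 sedentary mice, 9 without the 2 mice farthest from their groups (added after seeing the data), and 1 to 4 when each mouse was left out: 4 without sedentary PBMT replicate 5, 3 without sedentary control replicate 4 or sedentary PBMT replicate 2, and 2 without fatigued control replicate 6 or fatigued PBMT replicate 1 or 3. In fatigued muscle DESeq2 called 1 gene, Trp63, and leaving out each mouse gave 0 to 1, with 1 without fatigued PBMT replicate 2. Opposite effects numbered 35 with no filter, 31 with limma voom, 1 at an unadjusted p under 0.01 in both states, and 10 to 28 when each mouse was left out, with 28 without fatigued control replicate 5, 26 without fatigued PBMT replicate 2, and 10 without sedentary control replicate 1, sedentary PBMT replicate 1 or sedentary PBMT replicate 3. Effects in sedentary muscle alone numbered 133 with no filter and 147 with limma voom, and 51 to 119 when each mouse was left out, with 109 without sedentary control replicate 6 and 119 without sedentary PBMT replicate 2. Effects in fatigued muscle alone numbered 79 with no filter, 32 with DESeq2 and 39 with limma voom, and 12 to 47 when each mouse was left out, with 44 without fatigued control replicate 5 and 47 without fatigued PBMT replicate 2. Alternatives for the counts in 1 state alone were added after seeing the data. The cause of these shifts was not tested.

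Replicate numbers were not taken as pairing the mice, since this needed correlations over 0.1 in 6 of 6 pairs: same-numbered mice correlated between -0.072 and 0.066 in sedentary mice (0 of 6 over 0.1) and between -0.085 and 0.325 in fatigued mice (4 of 6). With the replicate block 1 gene was called for the difference, 7 in sedentary and 1, Trp63, in fatigued muscle, and effects in sedentary muscle alone numbered 101. In 1 of 6 sedentary and 3 of 6 fatigued pairs a mouse correlated best with the mouse of its own number. Directions of the named genes follow from their choice by p and say nothing of stability. Near 1 CPM, standard errors of the difference were 0.24 for Dpp6, 0.54 for BC048679 and 0.62 for Gprc5a, against 0.16 for Nfil3, and the part of depth in them was not tested.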

Other observations

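A ribosomal RNA entry, CT010467.1, was abundant in these libraries and was chosen after its values were seen. It ran from 3370 to 6120 CPM (median 3710) in sedentary controls and from 2770 to 3800 CPM (median 3220) with PBMT. In fatigued mice it ran from 1960 to 2880 CPM (median 2430) in controls and from 2270 to 11700 CPM (median 3630) with PBMT, with the highest value in replicate 6. Its difference was 1.36 on the log2 scale (edgeR adjusted p = 0.946). The small nuclear RNA Rn7sk, also chosen after its values were seen, was likewise highest in fatigued PBMT replicate 6, at 5.25 CPM against a group median of 1.37 CPM. The part of the amount of such RNA in the other results was not tested.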
